A study of Lactuca sativa with 20 samples.

Results

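Genes whose transcripts were lower both with ACC and with the peptide CLE12p were examined in whole seedlings of lettuce (*Lactuca sativa*, variety Little Gem). The 104 genes, called members here, were chosen from 37828 gene models by measured values. CPM is the read count divided by the library total, times 1000000. A member had a mean of at least 1 CPM over the 20 libraries, which 20479 gene models reached. Its log2(mean CPM + 1) was at least 0.4 lower with ACC and at least 0.4 lower with CLE12p than in the 5 control libraries. Every ACC library and every CLE12p library also lay below every control library, and any change with ABA was allowed. The members made up 0.508% of the gene models with a mean of at least 1 CPM.

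ACC is the precursor that plant cells oxidise to ethylene, a gas that acts as a hormone in fruit ripening and in the ageing of leaves and flowers. Ethylene is sensed by receptors of the endoplasmic reticulum that keep the kinase CTR1 active in its absence, and its binding frees EIN2 and the transcription factors of the EIN3 family. CLE peptides are short secreted signals read at the cell surface by receptor kinases of the CLAVATA1 type, and are best known for restraining stem cells of the shoot and root tips. Abscisic acid (ABA) is the hormone of drought and seed dormancy, and it also promotes senescence. The series title places the peptide of the lettuce gene *LsCLE12* in the context of delayed senescence.

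Seedlings of the same variety, grown for 4 days on medium under continuous light, were held for 2 h in 1 of 7 solutions. These were CLE12p with ACC, ACC, CLE12p, CLE12p with ABA, ABA (each agent at 10 µM), 0.02% ethanol, and water. Each had 3 libraries except ethanol, which had 2. For 3 libraries the design text has ABA with ACC where the sample labels have CLE12p with ACC, and they are taken here as the sample labels give them. The labels do not say which solutions of agents held ethanol. They also do not say if replicates came from separate sets of seedlings, so p-values measure the spread between these libraries, which may be technical. RNA came from whole seedlings, so fewer cells of a type and less RNA per cell cannot be told apart.

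Libraries held 18614220 to 27101622 counts. Of the 37828 identifiers of the count table, 0 matched the 51651 genes of the reference gene table of assembly Lsat_Salinas_v11, so members are given by identifier, without names, roles or sequences. The 3 pathway lists set for ethylene, CLE receptors and ABA had 0 members that could be found. No marker of a tissue or cell type could therefore be read, and the labelled whole seedling could not be checked against markers. The deposited counts give no gene lengths, so CPM is compared between libraries for the same gene and not between genes. Over 20 libraries the mean of the members ran from 1.11 to 1254 CPM with a median of 12.5 CPM, beside a median of 17.1 CPM over the 20479 gene models. There were 26 members under 5 CPM and 7 over 100 CPM. The lowest count of any member in any library was 5, and 4 members had under 10 counts in some library.

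The values that chose the members were as follows, and they carry no test. With ACC the difference from the controls had a median of -0.63 on the log2(CPM + 1) scale (quartiles -0.78 and -0.52), and it ran from -1.75 to -0.40. With CLE12p the median was -0.55 (quartiles -0.63 and -0.47), and the range was -1.07 to -0.40. The medians over the 20479 gene models were -0.02 for both. A difference of -1 or lower was reached by 12 members with ACC and by 3 with CLE12p, so most members were moderately lower with either agent. Over the 20479 gene models, 27 and 4 reached it. The ACC difference was the lower of the pair in 74 members (49.3% of gene models). In 17 members every ACC library lay below every CLE12p library, and in 2 every ACC library lay above, where 11.5% and 10.4% of gene models did so.

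**Figure D1:**
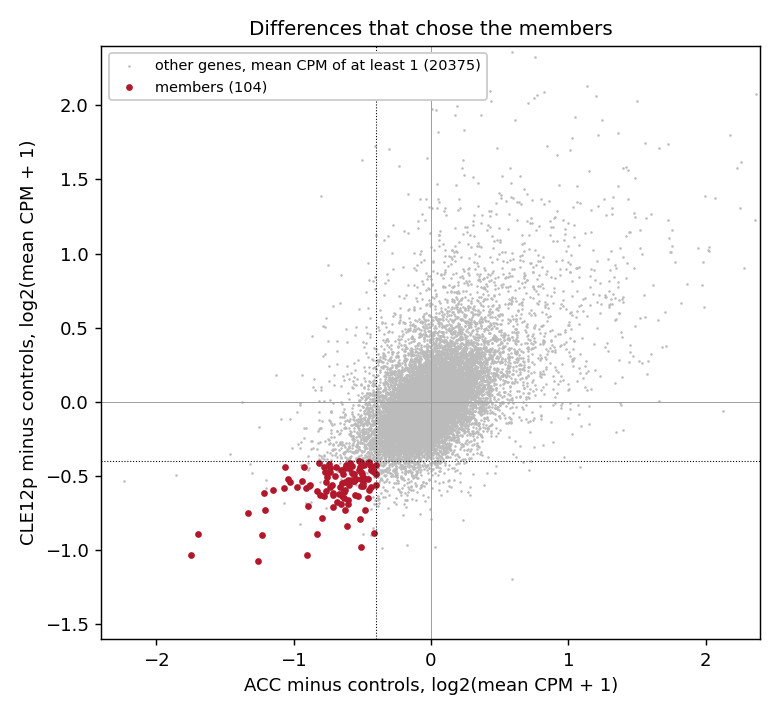
Difference of ACC from the controls (x axis) and of CLE12p from the controls (y axis), both as log2(mean CPM + 1), for 20479 gene models with a mean of at least 1 CPM. Red points are the 104 members, which lie at or below -0.4 on both axes (dotted lines). Both axes share the 5 control libraries, and 21 gene models lie outside the axes.

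Both cuts passed through a continuum of genes. Over the 20479 gene models, every ACC library lay below every control in 9.58% and above in 10.7%. Every CLE12p library lay below every control in 5.47% and above in 7.85%, beside the 104 members below and 0 above that the rule fixed for both agents. There were 436 gene models below the controls in all libraries of both agents, of which 332 missed a cut. Of these, 27 missed the ACC cut alone and 70 the CLE12p cut alone. The members nearest the ACC cut had differences of -0.4005, -0.4012 and -0.4025, and the genes just outside it had -0.3974, -0.3961 and -0.3892. Nearest the CLE12p cut were -0.4009, -0.4036 and -0.4056 inside and -0.3965, -0.3946 and -0.3911 outside. The number of members rests in part on single libraries. It was 218 without CLE12p replicate 2 and 169 without water replicate 3.

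CLE12p replicate 2 stood apart from the other peptide libraries. Its members had a median of -0.40 relative to the mean of the controls, against -0.59 and -0.66 in CLE12p replicates 1 and 3. The summed level of the members was 4033 CPM in it, and 3335 and 3279 CPM in the other two. In CLE12p with ABA, replicate 2 lay on the other side, at a sum of 3272 CPM against 4131 and 4343 CPM. The spread between libraries of a group was wider in members than over all gene models in every group but ABA, a description without a test. Their median SD of log2(CPM + 1) was 0.205 against 0.134 over the 20479 gene models in CLE12p with ACC, 0.153 against 0.104 in ACC, 0.216 against 0.149 in CLE12p, and 0.218 against 0.134 in CLE12p with ABA. In ABA it was 0.0953 against 0.0999, in ethanol 0.107 against 0.0965, and in water 0.126 against 0.122.

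As a sum, the members took 2944 ± 173 CPM in CLE12p with ACC, 3176 ± 66.0 CPM in ACC and 3549 ± 420 CPM in CLE12p (SD, n = 3 each). They took 3915 ± 567 CPM in CLE12p with ABA and 5573 ± 109 CPM in ABA (SD, n = 3 each), against 5290 ± 311 CPM in the 5 controls (SD). A single gene, Lsat_1_v5_gn_9_113301, supplied 28.1% to 36.2% of the sum, depending on the group. Without it the sums were 1763 to 1999 CPM in CLE12p with ACC, 2140 to 2266 CPM in ACC, 2169 to 2805 CPM in CLE12p, 2411 to 3077 CPM in CLE12p with ABA, 3855 to 4062 CPM in ABA and 3532 to 4027 CPM in the controls. The libraries of CLE12p with ABA thus lay below those of ABA and of the controls, with or without that gene.

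**Figure D2:**
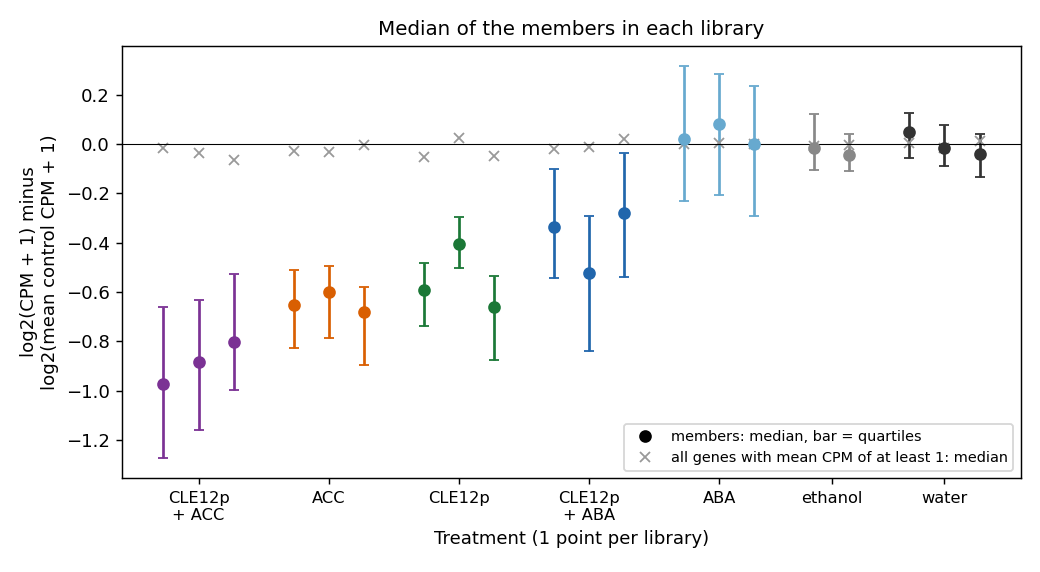
Members in each library, as log2(CPM + 1) minus log2(mean control CPM + 1). Circles are the median over 104 members with quartiles as bars, and crosses the median over 20479 gene models. Medians lie from -0.97 to -0.80 in CLE12p with ACC, from -0.52 to -0.28 in CLE12p with ABA, and within 0.08 of 0 in ABA and the controls, while the crosses lie from -0.06 to 0.03.

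Many members were lower with the peptide when ABA was also present. The rule used the libraries of CLE12p with ABA and of ABA only in the mean over 20 libraries that had to reach 1 CPM, not in its differences or overlaps, so these groups were tested. The spread for the tests was estimated from all 20 libraries, those that chose the members included. By edgeR's quasi-likelihood test with Benjamini-Hochberg adjustment over 23413 genes, 35 of the 104 members (33.7%) fell at an adjusted p below 0.05 and 0 rose. Over all genes tested, 1.28% fell and 2.65% rose, so more genes rose than fell among all genes tested, whereas the members called all fell. The members' median log2 fold change was -0.42 (quartiles -0.61 and -0.30), against 0.00 over all genes tested, and 98 of 104 had a negative value. On the log2(CPM + 1) scale 98 members were negative too, where 50.6% of the 20479 gene models were. The called members fell by a median of 1.57-fold. At an unadjusted p below 0.05 there were 67 lower members and 0 higher, where 8.15% and 9.78% of all genes tested were lower and higher. DESeq2 called 43 lower and 0 higher, where 2.42% and 4.01% of the 20527 genes to which it gave an adjusted p were called. Every library of CLE12p with ABA lay below every ABA library in 71 members and above in 0, where 13.4% and 12.6% of the 20479 gene models did so.

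How many members passed rested on single libraries. There were 14 lower members without CLE12p with ABA replicate 2, 16 without ABA replicate 1 and 22 without ABA replicate 2, each among the 35. Over all genes, 0.265%, 0.372% and 0.470% fell in these fits. The median stayed between -0.48 and -0.35 without any single library of the 6 compared.

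**Figure D3:**
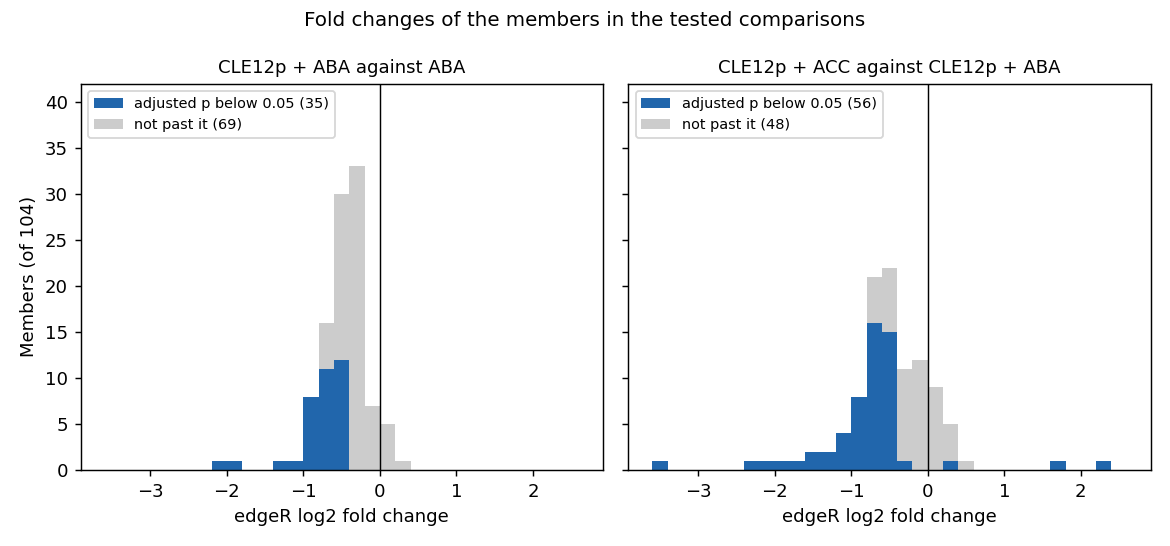
Number of members (y axis) by edgeR log2 fold change (x axis, bins of 0.2) for CLE12p with ABA against ABA (left) and CLE12p with ACC against CLE12p with ABA (right). Blue marks members past an adjusted p of 0.05 (35 and 56), grey the other members (69 and 48). On the left all blue lies below 0, and on the right 3 called members lie above it.

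Lsat_1_v5_gn_8_10000 had the largest fall. It had 0.951, 0.549 and 1.10 CPM in CLE12p with ABA, against 3.25, 4.84 and 3.46 CPM in ABA, and its log2 fold change was -2.14 ± 0.32 (SE), with an adjusted p of 2.91e-04. The groups did not overlap, although the level in CLE12p with ABA rests on 22, 12 and 24 counts. In the other groups it had 3.86, 2.95 and 5.60 CPM in CLE12p with ACC, 2.64, 2.73 and 2.30 CPM in ACC and 4.19, 6.88 and 4.60 CPM in CLE12p, against 13.7 and 8.28 CPM in ethanol and 7.84, 10.7 and 12.2 CPM in water. It was lower than the controls in all 15 treated libraries, ABA alone included.

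Lsat_1_v5_gn_0_15181 came next at -1.88 ± 0.25 on the log2 scale (SE), with an adjusted p of 6.34e-05. It had 3.24, 2.01 and 2.11 CPM in CLE12p with ABA, against 8.87, 8.17 and 10.3 CPM in ABA. Unlike the first gene it stood higher in ABA than in the controls, which had 7.26 and 4.52 CPM in ethanol and 5.29, 4.35 and 4.74 CPM in water. With the peptide beside ABA its level was close to that in CLE12p with ACC (2.02, 1.95 and 2.84 CPM), ACC (2.64, 1.96 and 2.45 CPM) and CLE12p (3.33, 1.90 and 3.27 CPM), and these ranges overlapped.

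Members that did not pass the test in ABA covered log2 fold changes of -0.69 to 0.30. Their median SE was 0.18, against 0.15 among the called members, and the smallest called fall was -0.44. The level of a gene moved with the count of calls. Of the 26 members under 5 CPM, 3 fell, with a median SE of 0.26, where 0.573% of all genes tested at 1 to 5 CPM fell. Among 42 members at 5 to 20 CPM 13 fell, among 29 at 20 to 100 CPM 15 fell, and among 7 over 100 CPM 4 fell, with median SEs of 0.16, 0.13 and 0.12. Over all genes tested in these 3 bands, 1.20%, 2.11% and 1.77% fell. The median fold change differed less between these bands, at -0.40, -0.44, -0.45 and -0.55.

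With ACC in place of ABA beside the peptide, most called members were lower. In CLE12p with ACC against CLE12p with ABA, both groups again entered the rule only through the mean over 20 libraries. In edgeR's quasi-likelihood test, 53 of 104 members (51.0%) were called lower and 3 higher, where 10.4% and 11.7% of the 23413 genes were called. The median log2 fold change was -0.51 (quartiles -0.74 and -0.14) against 0.00 over all genes tested, and 87 of 104 were negative. Of all genes tested at 1 to 5, 5 to 20, 20 to 100 and over 100 CPM, 53.9%, 51.9%, 46.8% and 39.0% were negative. Every library of CLE12p with ACC lay below every library of CLE12p with ABA in 58 members and above in 3, where 20.1% and 15.1% of the 20479 gene models did so. The share called lower differed with the level in ABA alone. Of the 24 members above all controls in every ABA library, 19 were called lower. Of the genes tested with a mean of at least 1 CPM that lay there, 47.2% were. Among the 54 members whose ABA libraries overlapped the controls 26 were called lower, beside 6.49% of such genes. Among the 26 members below all controls in every ABA library 8 were, beside 1.67%. These shares were not compared by a test. Both tested comparisons use the libraries of CLE12p with ABA, so their calls are not independent.

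Lsat_1_v5_gn_1_40420 differed most. It had 4.65, 2.81 and 3.65 CPM in CLE12p with ACC, against 36.5, 40.2 and 48.7 CPM in CLE12p with ABA, or -3.45 ± 0.22 on the log2 scale (SE), with an adjusted p of 1.22e-10. Levels were 52.7, 62.5 and 51.7 CPM in ABA. The groups with ABA lay far above the others, since ACC had 5.19, 5.35 and 5.98 CPM and CLE12p 6.98, 7.81 and 4.50 CPM, against 22.5 and 12.2 CPM in ethanol and 13.0, 14.9 and 10.4 CPM in water. In ABA, its change with the peptide was -0.41 ± 0.18 (SE) and did not pass the test (adjusted p = 0.224).

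Lsat_1_v5_gn_2_65940 was a gene of few reads, with 0.414, 0.238 and 0.325 CPM in CLE12p with ACC, against 1.90, 1.37 and 1.79 CPM in CLE12p with ABA (log2 fold change -2.31 ± 0.36, SE, adjusted p = 4.56e-05). These levels rest on 9, 5 and 8 counts against 44, 30 and 39. ABA alone had 1.89, 2.28 and 1.85 CPM, and the 5 controls 1.31 to 1.95 CPM. Its response to the peptide in ABA was -0.25 ± 0.30 (SE, adjusted p = 0.732). Over the 20 libraries this gene averaged 1.19 CPM, near the minimum of 1 CPM that the rule set. The groups holding ABA averaged more, at 2.01 CPM without the peptide and 1.69 CPM beside it. Averages were 0.606 CPM with ACC, 0.708 CPM with CLE12p, 0.326 CPM with both and 1.54 CPM in the controls. The choice of this gene thus rested in part on the high levels that the tests compare, so neither p-value is free of it.

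The 3 members called higher all lay below the controls in every ABA library. They were 11.5% of the 26 members that did so. Of the 2453 genes tested with a mean of at least 1 CPM that did so, 54.9% were called higher. Lsat_1_v5_gn_8_10000 had the highest log2 fold change at 2.30 ± 0.32 (SE), with an adjusted p of 1.02e-05 and the CPM given above. Lsat_1_v5_gn_2_124880 had 51.3, 55.9 and 57.0 CPM in CLE12p with ACC, against 16.6, 17.0 and 16.8 CPM in CLE12p with ABA, or 1.75 ± 0.09 on the log2 scale (SE), with an adjusted p of 9.76e-12. The third, Lsat_1_v5_gn_4_11020, is named after its values were seen to complete the count. It had 13.4, 12.1 and 13.1 CPM in CLE12p with ACC, against 10.4, 10.1 and 11.8 CPM in CLE12p with ABA, or 0.30 ± 0.10 on the log2 scale (SE), with an adjusted p of 0.0280. That gene also fell with the peptide in ABA (-0.57 ± 0.10, SE, adjusted p = 9.50e-04).

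Levels in CLE12p with ACC were below the controls in nearly all members. Every library of the combination lay below all 5 controls in 95 of 104 members and above in 0, where 13.1% and 12.3% of the 20479 gene models did so. The median difference was -0.85 (quartiles -1.11 and -0.63), against -0.04 over the gene models. A difference of -1 or lower was reached by 36 members, and by 117 of the 20479 gene models. The controls of this comparison are those of the rule, so these are values without a test. The group with the lowest mean was CLE12p with ACC in 71 members, ACC in 18, CLE12p with ABA in 8, CLE12p in 6 and ABA in 1. The rule kept the controls from being lowest, and the same count over the gene models was not made.

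Set beside the single agents, the combination was somewhat lower. Its difference from ACC had a median of -0.17 (quartiles -0.38 and 0.04), and its difference from CLE12p a median of -0.30 (quartiles -0.50 and -0.08). Those over the gene models were -0.02 and -0.01. Every library of the combination lay below every ACC library in 34 members and above in 2, where 12.6% and 10.9% of gene models did so. For CLE12p the numbers were 37 and 1, beside 9.63% and 7.98%. In 25 members it lay below all 6 libraries of both agents, beside 3.93%. By group mean, the combination was below both agents in 74 members (37.0% of gene models), between them in 15 and above both in 15 (29.8% of gene models). The difference from the controls was smaller than the sum of the differences of the single agents in 96 members (50.1% of gene models), by a median of 0.37 (0.00 over the gene models). That sum holds both differences that the rule chose to be low and the same controls in each of them, so nothing is read from the shortfall. ACC and CLE12p libraries were required to be low by the rule, so none of these values was tested.

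By the less negative of their ACC and CLE12p differences from the controls, Lsat_1_v5_gn_1_40420 and Lsat_1_v5_gn_5_151201 were the lowest members. Both were higher in ABA than in the controls. Lsat_1_v5_gn_5_151201 had 5.06, 7.10 and 6.73 CPM in CLE12p with ACC, 8.82, 9.19 and 7.52 CPM in ACC and 14.3, 15.1 and 14.4 CPM in CLE12p, against 31.7 and 28.8 CPM in ethanol and 31.7, 30.2 and 32.3 CPM in water. These 4 levels did not overlap: the combination was lowest, then ACC, then CLE12p, then the controls. In ABA it stood at 63.3, 61.4 and 63.8 CPM, the highest of any group. The peptide beside ABA brought it to 32.9, 18.7 and 30.1 CPM, or -1.20 ± 0.14 against ABA on the log2 scale (SE), with an adjusted p of 1.33e-05, and CLE12p with ACC was lower again than that (-2.06 ± 0.16, SE, adjusted p = 2.58e-09).

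ABA alone split the members. Every ABA library lay below all 5 controls in 26, above them in 24, and overlapped them in 54, where 12.0% of the 20479 gene models lay below and 13.4% above. With the 2 ethanol libraries alone as controls, 40 members lay above, where 22.4% of gene models did so. The median difference from the controls was 0.02 (quartiles -0.21 and 0.25), and the range -2.39 to 1.86. ABA was the group with the highest mean in 46 members. The rule kept ACC and CLE12p from being highest, and the same count over the gene models was not made. In the lower, overlapping and higher classes the ACC difference had medians of -0.71, -0.61 and -0.66, and the CLE12p difference medians of -0.55, -0.54 and -0.56. In CLE12p with ACC they were -0.95, -0.84 and -0.80. The classes use the controls of the rule and were not tested.

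**Figure D4:**
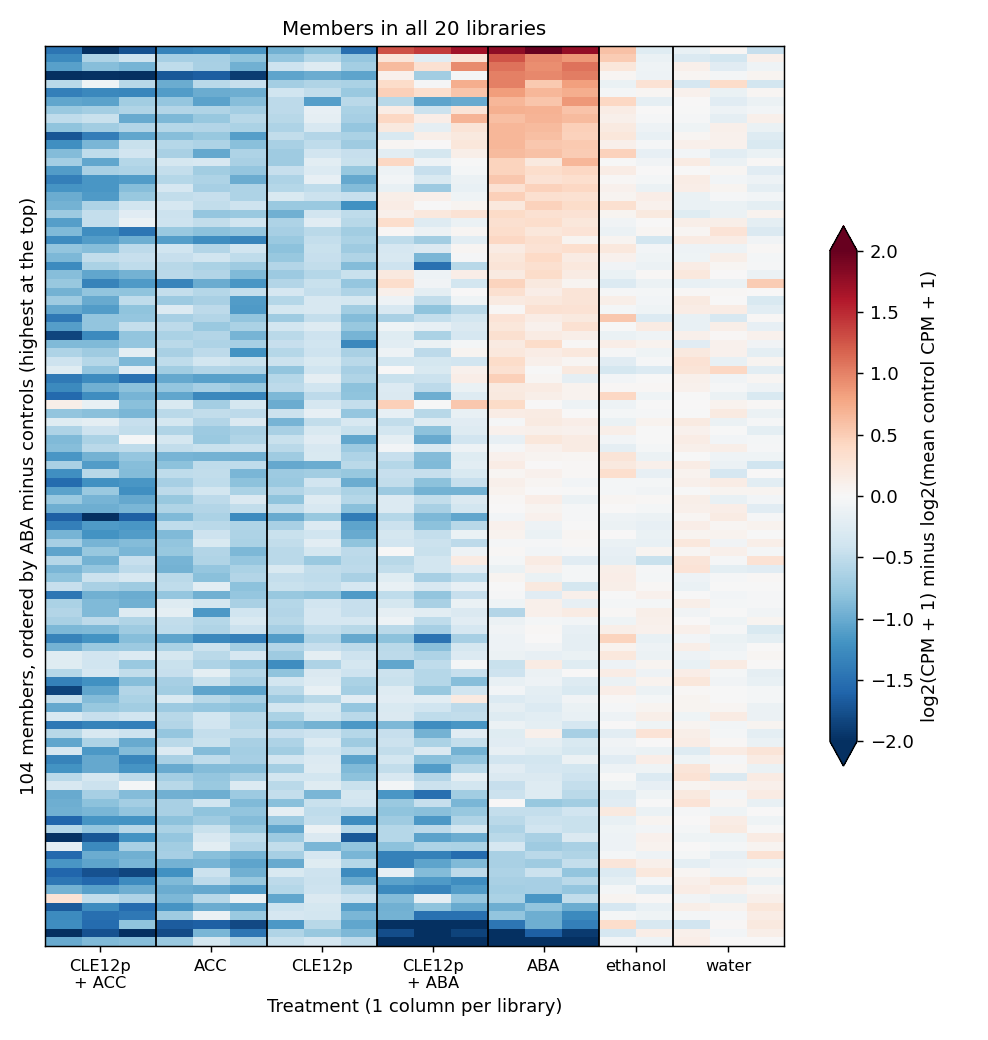
The 104 members (rows, ordered by the difference of ABA from the controls) in 20 libraries (columns), as log2(CPM + 1) minus log2(mean control CPM + 1), with colours capped at -2 and 2. Blue is lower than the control mean and red higher. Columns of ACC and CLE12p are blue in every row and those of CLE12p with ACC in nearly every row (2 members lie above the control mean in its replicate 1), whereas ABA runs from 1.86 at the top to -2.39 at the bottom, with CLE12p with ABA shifted toward blue beside it.

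Median fold changes with the peptide in ABA were negative in all 3 classes of members. Of the 24 members higher in ABA, 12 fell with the peptide and all 24 had a negative log2 fold change, with a median of -0.56. Over all genes tested with a mean of at least 1 CPM in the same ABA class, 3.93% fell, 65.1% were negative and the median was -0.07. Among the 54 overlapping members 17 fell and 53 were negative (median -0.45), where 1.01% of the genes of that class fell and 51.0% were negative. Among the 26 lower members 6 fell and 21 were negative (median -0.30), where 1.39% of the genes of that class fell and 29.6% were negative. The classes were drawn with the ABA libraries of the same comparison, so the order of these medians was not tested. Relative to the controls, every library of CLE12p with ABA lay below in 58 members and above in 4, where 11.5% and 13.6% of gene models did so. By class, 22 of the 26 lower, 33 of the 54 overlapping and 3 of the 24 higher members lay below. The 4 members above the controls all belonged to the class higher in ABA. The classes and these counts share the controls, and the shares of gene models by class were not counted. Nothing is therefore read from this split.

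Among members lower in ABA, Lsat_1_v5_gn_2_124880 and Lsat_1_v5_gn_4_67740 had the lowest differences of ABA from the controls. Lsat_1_v5_gn_2_124880 had 19.0, 17.9 and 20.0 CPM in ABA, against 99.4 and 96.4 CPM in ethanol and 114, 105 and 104 CPM in water. With ACC it had 61.7, 80.9 and 65.4 CPM and with CLE12p 76.3, 82.0 and 71.5 CPM, between ABA and the controls without overlap. The peptide beside ABA changed it by -0.17 ± 0.09 on the log2 scale (SE), which did not pass the test (adjusted p = 0.349).

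Lsat_1_v5_gn_4_67740 had 8.92, 12.0 and 9.68 CPM in ABA, against 31.0 and 43.3 CPM in ethanol and 42.2, 37.8 and 42.6 CPM in water. It stood at 7.41, 11.1 and 9.01 CPM in CLE12p with ACC and at 10.9, 7.78 and 10.2 CPM in CLE12p with ABA, so these 3 groups overlapped at a low level. ACC had 10.6, 20.5 and 13.9 CPM and CLE12p 25.7, 22.8 and 20.6 CPM. Neither tested comparison passed for it, with log2 fold changes of -0.09 ± 0.21 for CLE12p with ABA against ABA (adjusted p = 0.878) and -0.03 ± 0.21 for CLE12p with ACC against CLE12p with ABA (SE, adjusted p = 0.947).

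The members with the highest differences of ABA from the controls were Lsat_1_v5_gn_1_40420, described above, and Lsat_1_v5_gn_8_118500. Lsat_1_v5_gn_8_118500 had 131, 107 and 100.1 CPM in ABA, against 77.7 and 49.5 CPM in ethanol and 44.3, 42.2 and 58.5 CPM in water. With the peptide beside ABA it fell to 64.6, 46.5 and 64.7 CPM, or -0.94 ± 0.19 on the log2 scale (SE), with an adjusted p of 0.00448, and these levels overlapped the controls. It had 21.9, 35.0 and 40.7 CPM in CLE12p with ACC, 34.0, 34.0 and 30.7 CPM in ACC and 31.3, 36.2 and 31.3 CPM in CLE12p, and these groups overlapped. It was lower in CLE12p with ACC than in CLE12p with ABA (-0.80 ± 0.19 on the log2 scale, SE), with an adjusted p of 0.00342.

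The members with the most reads were Lsat_1_v5_gn_9_113301 and Lsat_1_v5_gn_3_47760. Lsat_1_v5_gn_9_113301 had 984, 1135 and 1074 CPM in CLE12p with ACC, 999, 918 and 966 CPM in ACC and 970.3, 1227 and 1110 CPM in CLE12p, against 1645 and 1502 CPM in ethanol and 1598, 1507 and 1316 CPM in water. The combination overlapped both single agents. In ABA it had 1609, 1618 and 1601 CPM, and with the peptide beside ABA it fell to 1172, 861 and 1266 CPM (log2 fold change -0.55 ± 0.11, SE, adjusted p = 0.00362). CLE12p with ACC against CLE12p with ABA gave -0.00 ± 0.10 (SE), with an adjusted p of 0.997.

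Lsat_1_v5_gn_3_47760 had 211, 163 and 142 CPM in CLE12p with ACC, below ACC (231, 218 and 226 CPM) and CLE12p (243, 266 and 239 CPM) in every library. The controls had 355 and 399 CPM in ethanol and 397, 470.2 and 315 CPM in water. In CLE12p with ABA it had 394, 358 and 396 CPM, against 492, 452 and 470.2 CPM in ABA, and the log2 difference of -0.30 ± 0.12 (SE) did not pass the test, with an adjusted p of 0.166. Without overlap, CLE12p with ACC stood below CLE12p with ABA at a log2 fold change of -1.12 ± 0.12 (SE), with an adjusted p of 2.70e-07.

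**Figure D5:**
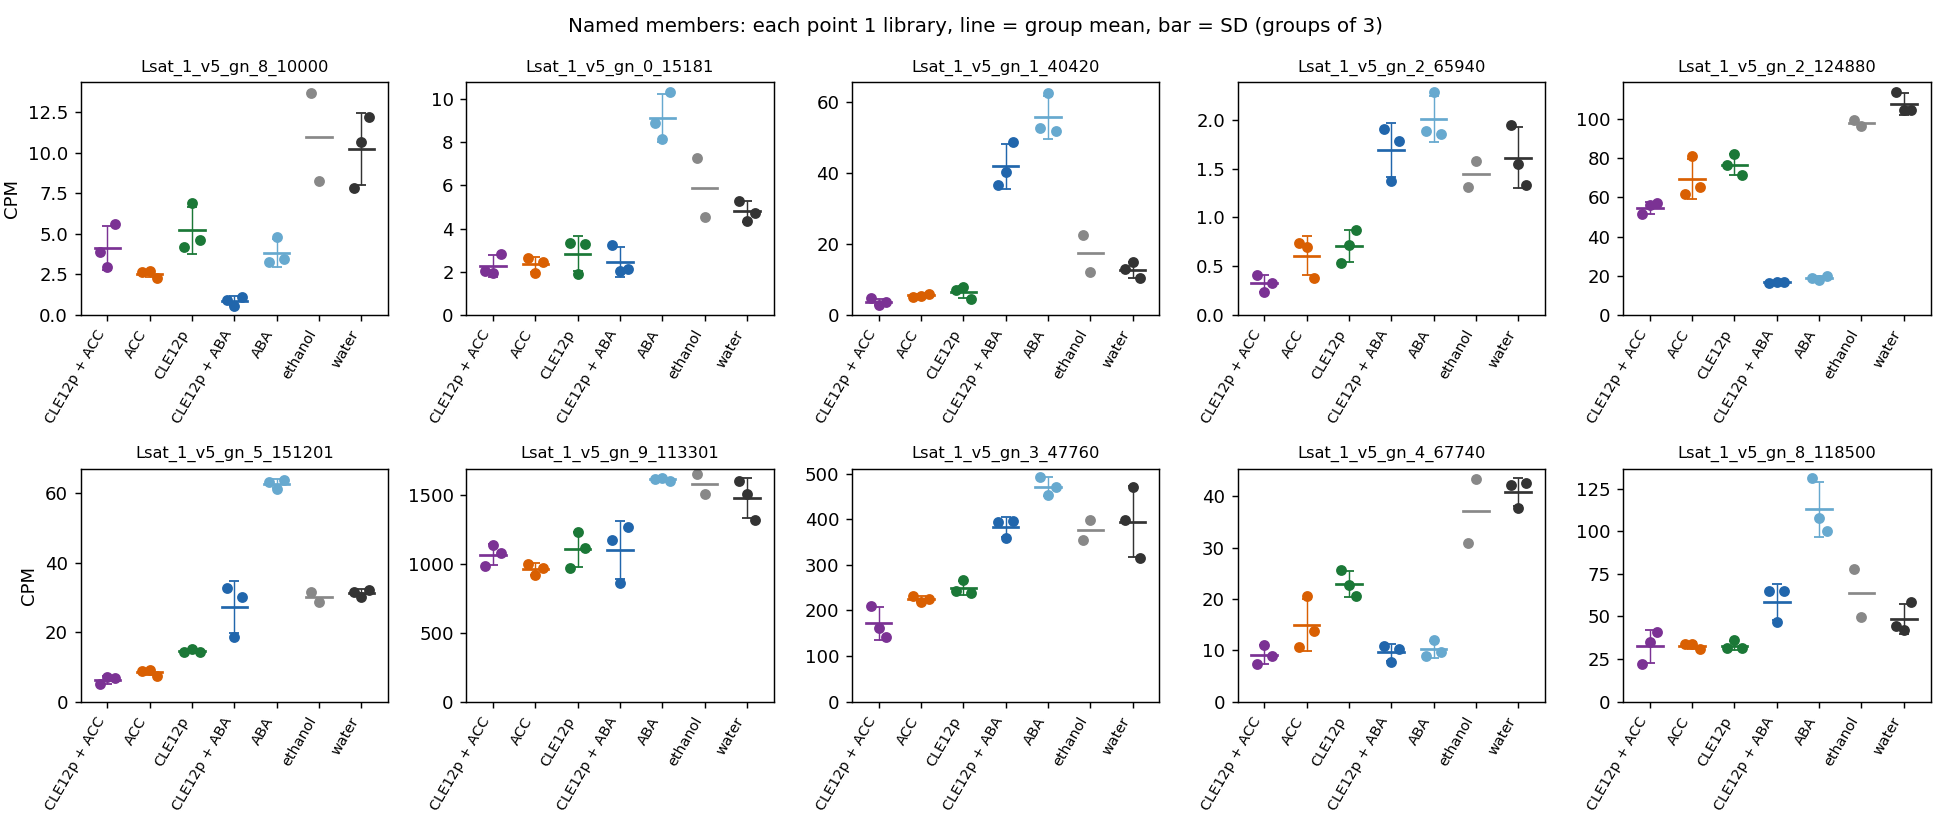
CPM of the 10 members named by rule, each in its own panel with a y axis from 0, by treatment. Points are libraries, lines group means and bars the SD (groups of 3). In every panel all ACC and CLE12p points lie below all ethanol and water points, as the rule required, while ABA points range from far below (Lsat_1_v5_gn_2_124880) to far above the controls (Lsat_1_v5_gn_1_40420).

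The controls themselves differed little in the median of the members, though in some members by as much as the 0.4 of the cut. The difference of ethanol from water had a median of -0.02 on the log2(CPM + 1) scale (quartiles -0.10 and 0.09) and ran from -0.48 to 0.42. Both ethanol libraries lay below all water libraries in 18 members and above in 6, where 11.1% and 10.1% of gene models did so. Ethanol and water libraries were all used by the rule, so this is given without a test.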

How the data were processed

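The authors deposited a table of raw counts for each gene model, with 1 column per library. The submitters' processing notes name STAR 2.7.10a. No source used here gives the read counter, strandedness, build or annotation, so reads of overlapping, antisense or near-identical genes cannot be told apart. All 20 count columns were matched to samples by title, and 0 count columns were left unused. Replicates were not repeats of the same library: over 19 pairs, chi-square divided by its degrees of freedom was 3.59 to 24.9.

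Members and lists were chosen with earlier results of these data known. CPM used column totals. Tests used edgeR 4.0.16 in R 4.3.3 on all 20 libraries in 7 groups: filterByExpr with a minimum of 10 counts (23413 genes, all 104 members), TMM factors (0.961 to 1.03), a quasi-likelihood fit (common biological coefficient of variation 0.117), and Benjamini-Hochberg adjustment over all genes tested. SE is the absolute log2 fold change over the square root of F. Tests were limited to groups that entered the rule only through the mean over 20 libraries. The spread behind each p-value and SE also came from the 11 libraries of the rule's differences and overlaps. A fit of only the other 9 libraries called 32 members lower for CLE12p with ABA against ABA (1.07% of all genes), 29 of them shared with the main fit. For CLE12p with ACC against CLE12p with ABA it called 55 lower (10.5% of all genes), 53 of them shared. The steps were tested on simulated counts. Alternatives were DESeq2 1.42.0, other scalings and filters, fewer libraries, each library left out, and a replicate block.

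Named members were, for each tested comparison, the called members without overlap that had the lowest 2 and highest 2 fold changes. To these were added the 2 with the lowest differences from the controls under both agents and the 2 with most reads. The 2 extremes of the ABA difference from the controls were added in each direction.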

Additional observations from a re-analysis of the deposited data

Results flagged for a closer look

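Of the 104 members, 1 was lower with ACC in every library against water but higher with ACC in every library when CLE12p was present. Lsat_1_v5_gn_5_27401 had 0.371, 0.886 and 0.978 CPM in ACC, below 1.16, 2.53 and 1.10 CPM in water, whereas CLE12p with ACC had 0.874, 1.57 and 0.852 CPM, above 0.698, 0.803 and 0.767 CPM in CLE12p. Its difference of CLE12p with ACC from CLE12p was 0.26 on the log2(CPM + 1) scale. The difference between the backgrounds was not tested, and the levels rest on 9 to 54 counts per library in these groups. The ACC and water libraries were used by the rule, which fixed the first direction in every member. Every library of CLE12p with ACC lay above every CLE12p library in 1 member, where 7.98% of the 20479 gene models did so. The share of gene models with both directions was not counted. For the peptide against water and beside ABA, 0 of 104 members showed such opposite directions. Every library of CLE12p with ABA lay above every ABA library in 0 members, where 12.6% of gene models did so.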

How the results depend on the processing

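The number of members (104) was 171 with water libraries alone as controls, 61 and 182 with a difference of at most -0.5 and -0.3, and 89 to 218 without single libraries of the rule. Of the 218 without CLE12p replicate 2, 101 were among the 104, and 101 of the 169 without water replicate 3. Members above the controls in every ABA library numbered 40 with ethanol alone as controls (22.4% of gene models). For CLE12p with ABA against ABA, 14 to 35 members were lower without single libraries (0.265% to 1.42% of all genes), 32 to 43 under the other settings (1.02% to 2.42%), and 0 were higher in any of these. For CLE12p with ACC against CLE12p with ABA, 42 to 60 were lower without single libraries (8.51% to 9.84% of all genes) and 41 to 57 otherwise (8.59% to 12.6%). With the replicate block, 33 and 52 members were lower in these comparisons (1.02% and 9.93%). The numbers do not pair the libraries: same-numbered libraries of different groups had a median correlation of deviations of -0.0203 over 57 pairs, 2 of them over 0.1. These ran from -0.432 to 0.174. Differently numbered libraries of different groups had a median of 0.00579 over 114 pairs, 17 of them over 0.1, and ran from -0.331 to 0.352. A grouping of libraries other than by replicate number was not tested.

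Among named members, 265 values kept their direction and side of the threshold, 2 passed it in the fit of only the 6 libraries compared (Lsat_1_v5_gn_1_40420 and Lsat_1_v5_gn_3_47760 for the peptide in ABA, adjusted p = 0.0421 and 0.0220), and 11 changed sign, none called. For the peptide in ABA, the log2 fold change of Lsat_1_v5_gn_4_67740 ran from -0.20 to 0.06 without single libraries (0.0601 without ABA replicate 2, 0.0513 without CLE12p with ABA replicate 2). For CLE12p with ACC against CLE12p with ABA, leaving out single libraries gave -0.28 to 0.21 for Lsat_1_v5_gn_0_15181 (positive values 0.0170, 0.0323 and 0.208), -0.18 to 0.10 for Lsat_1_v5_gn_4_67740 (positive values 0.0840 and 0.101) and -0.15 to 0.09 for Lsat_1_v5_gn_9_113301 (positive values 0.0530, 0.0627 and 0.0892), which had 0.00302 with the block. The cause was not tested. Median SEs were widest in members under 5 CPM (0.26 for the peptide in ABA), and the part of depth in their fewer calls was not tested.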
